A study of Mus musculus with 12 samples.

Results

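The prefrontal cortex was represented by 2 of the 12 one-colour Agilent arrays in the study, 1 from wild-type (WT) mice and 1 from mice lacking interleukin-18 (KO), and both arrays carrying that tissue label were used. They were set against 9 arrays of 5 other regions: WT and KO of olfactory bulb, striatum, hippocampus and hypothalamus, and the KO array of amygdala. Each array held labelled RNA from 5 pooled male mice aged 12 weeks, labelled strain C57BL/6 in both genotypes, so that every region and genotype was measured once and no sample measured the spread between mice. The mice were F2 littermates bred from IL-18-/- males and C57BL/6J females, and all were perfused with cold saline before the brain was cut into coronal slices. It is not stated if one set of animals supplied every region. The sample protocol places the cortical slice 2.5 to 3.5 mm posterior to bregma and the series design places it at the same distances anterior to bregma, and frontal cortex lies anterior.

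The prefrontal cortex is a layered sheet of neocortex known for its part in working memory and in the control of behaviour. Its main cells are glutamatergic pyramidal neurons, sorted by layer. Upper-layer cells mostly connect cortical areas, layer 5 cells send axons to striatum, brainstem and spinal cord, and layer 6 cells project to thalamus. Local GABAergic interneurons, among them parvalbumin, somatostatin and vasoactive intestinal peptide cells, regulate the pyramidal neurons. Noradrenaline, dopamine and serotonin fibres from the brainstem and midbrain modulate both classes. Arrays of dissected tissue cannot tell fewer cells of a type from less RNA per cell.

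The labels were first checked on Il18, the deleted gene. Its level ranged from 0.57 to 1.12 on the 6 WT arrays and from -4.35 to -3.12 on the 6 KO arrays. The probe was well above background on all 12 arrays, so a low signal remained on the KO arrays. A level is the log2 signal of a probe minus the 75th percentile of its array, so that 0 marks a probe as bright as that percentile, and levels of different probes cannot be ranked against each other. The array labelled WT amygdala went against its label. It correlated with WT hypothalamus at r = 0.993 and with KO amygdala at r = 0.980 over 25198 genes and transcripts. Pmch, the melanin-concentrating hormone precursor of lateral hypothalamus, stood at 6.02 on it, 5.92 and 5.93 on the hypothalamus arrays and -1.64 on KO amygdala. That array was left out of the main comparison. The striatum arrays were dim, with a 75th percentile intensity of 208 and 272 against 502 to 768 on the other arrays.

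Hkdc1, Tcap, Dkkl1 and Adra1b served as markers of the cortex. Hkdc1 encodes a hexokinase-like protein of the first step of glucose use, Tcap the titin cap protein telethonin of the muscle Z disc, Dkkl1 a secreted relative of the Dickkopf Wnt inhibitors, and Adra1b the alpha-1B adrenergic receptor for noradrenaline. No RefSeq promoter of 300 bases was found for Tcap. The start sites of the others are shown because the 4 genes share cortex as their highest region. The RefSeq promoters (GRCm38.p6) of 3 of them follow, each 300 bases around the transcription start, 5′ to 3′ on the gene's strand. Capitals mark the E-box CAGATG (or its complement CATCTG), a sequence that proneural factors of the Neurod family can bind, and the E-box CAGCTG. All were searched on both strands, together with a loose form of the Mef2 site, CTA and TAG with any 4 bases between. The motifs do not overlap one another in these promoters.
Hkdc1, chr10:62422408-62422707, minus strand: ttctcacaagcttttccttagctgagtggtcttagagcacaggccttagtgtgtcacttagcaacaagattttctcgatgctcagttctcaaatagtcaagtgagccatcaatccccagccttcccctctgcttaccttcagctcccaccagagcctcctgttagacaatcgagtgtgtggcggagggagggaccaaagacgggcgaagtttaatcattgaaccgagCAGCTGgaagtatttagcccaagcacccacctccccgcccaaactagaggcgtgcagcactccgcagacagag
Dkkl1, chr7:45211834-45212133, minus strand: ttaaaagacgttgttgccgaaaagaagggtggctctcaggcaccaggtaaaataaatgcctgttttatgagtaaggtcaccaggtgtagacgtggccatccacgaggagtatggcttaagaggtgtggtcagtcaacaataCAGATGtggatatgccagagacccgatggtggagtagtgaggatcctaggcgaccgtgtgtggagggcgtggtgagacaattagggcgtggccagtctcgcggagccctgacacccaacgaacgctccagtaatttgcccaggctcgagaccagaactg
Adra1b, chr11:43901188-43901487, minus strand, the first of 2 listed starts: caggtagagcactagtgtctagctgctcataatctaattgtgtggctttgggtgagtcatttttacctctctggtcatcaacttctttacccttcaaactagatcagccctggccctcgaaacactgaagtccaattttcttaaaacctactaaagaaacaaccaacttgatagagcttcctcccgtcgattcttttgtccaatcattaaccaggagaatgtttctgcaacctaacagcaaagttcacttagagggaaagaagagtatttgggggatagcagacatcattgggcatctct
The Hkdc1 promoter held 1 CAGCTG, the Dkkl1 promoter held 1 CAGATG, and no match to any of these was found in the Adra1b window. Of all 32851 RefSeq mouse promoters of this length, 17.2% held CAGATG, 16.3% held CAGCTG and 3.69% held CTA and TAG with any 4 bases between. These matches describe letters and not binding.

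All 4 markers were high on both cortex arrays and lower on each of the 9 others. They had been picked with results of these arrays known, so their levels are given as a description with no test. Hkdc1 stood at 3.20 (WT) and 2.84 (KO) in cortex, -0.73 and -0.97 in olfactory bulb, -1.44 and -1.28 in striatum, -0.03 in KO amygdala, 0.07 and 0.04 in hippocampus, and -0.32 and -0.47 in hypothalamus. Its 2 cortex values lay above all others, which ran from hippocampus down to striatum without overlap between regions, and the difference of cortex from the mean of the other 5 regions was 3.52 on the log2 scale (SE 0.11), or 11.5-fold. Tcap stood at 2.53 and 1.71 in cortex, 0.30 and 0.13 in olfactory bulb, -0.50 and -0.70 in striatum, -1.56 in KO amygdala, -2.10 and -2.62 in hippocampus, and -1.93 and -2.09 in hypothalamus. Olfactory bulb came second for Tcap and hippocampus last, and the difference from the mean of the other regions was 3.35 (SE 0.14), or 10.2-fold.

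Dkkl1 stood at 2.93 and 2.95 in cortex, 0.42 and 0.56 in olfactory bulb, -0.89 and -0.49 in striatum, 1.05 in KO amygdala, -1.31 and -1.72 in hippocampus, and 0.09 and 0.06 in hypothalamus. The order below cortex was amygdala, olfactory bulb, hypothalamus, striatum and hippocampus, with no overlap between neighbouring regions, and the difference was 3.06 (SE 0.15), or 8.35-fold. Adra1b stood at 3.15 and 3.59 in cortex, 0.17 and -0.01 in olfactory bulb, -0.93 and -0.49 in striatum, 0.89 in KO amygdala, 0.27 and 0.01 in hippocampus, and 0.95 and 1.01 in hypothalamus. Amygdala and hypothalamus were nearly level behind cortex, olfactory bulb and hippocampus overlapped, striatum was lowest, and the difference was 8.59-fold (SE 0.16 on the log2 scale). The 4 genes thus shared their top region and differed in the order of the others, with hippocampus lowest for Tcap and Dkkl1 and striatum lowest for Hkdc1 and Adra1b.

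**Figure D1:**
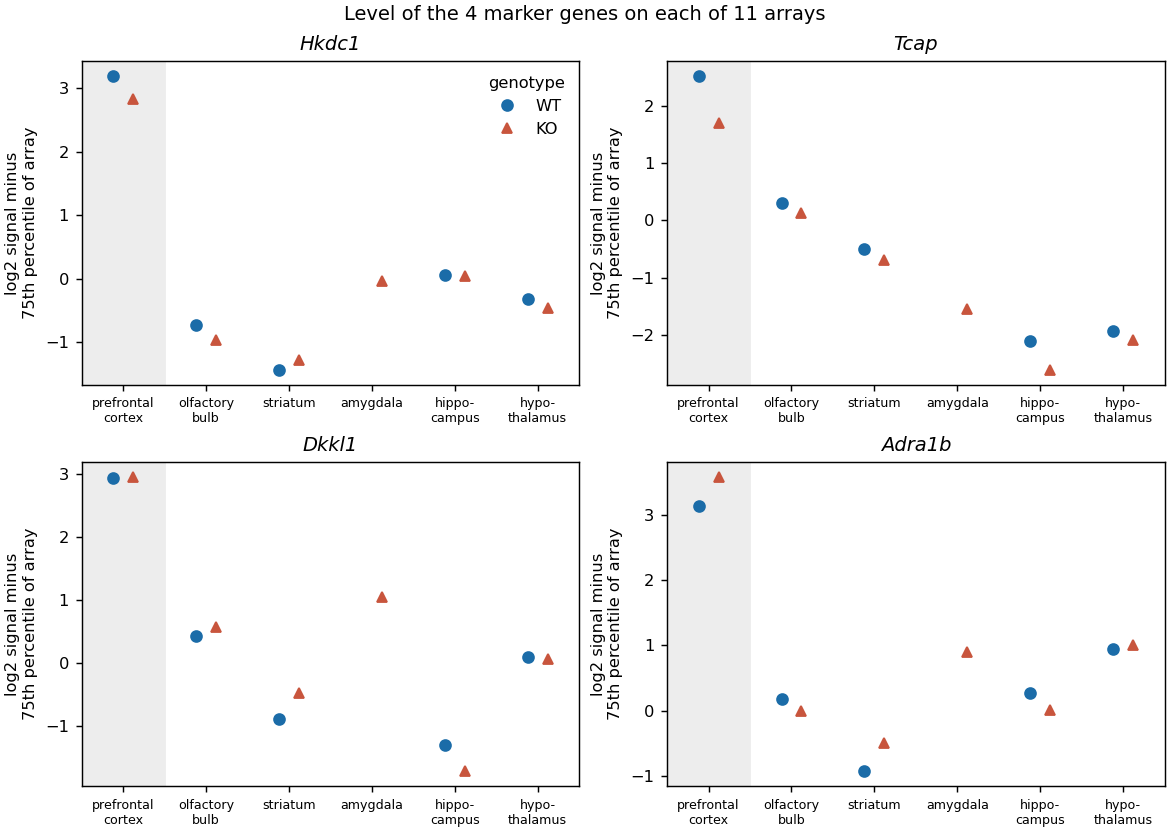
Level (log2 signal minus the 75th percentile of the array) of Hkdc1, Tcap, Dkkl1 and Adra1b on each of 11 arrays, by region, with circles for WT and triangles for KO. Each point is 1 array, and the shaded prefrontal cortex points lie above all 9 others in every panel.

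The named genes most like each marker over the 11 arrays were listed by Pearson r, as a description of arrays that share probes, slides and scaling. Hkdc1 was followed most closely by Eif4ebp1, a repressor of cap-dependent translation (r = 0.980), Lmna, which encodes lamin A and C of the nuclear envelope (r = 0.973), and the potassium channel gene Kcnk6 (r = 0.962). Tcap was followed by the orphan receptor gene Gpr162 (r = 0.978) and by Btbd17 (r = 0.957). Dkkl1 was followed by Cux2, a homeobox gene of upper-layer neurons (r = 0.978), Tmem132d (r = 0.974) and Prr15 (r = 0.969), and Adra1b by Ppme1, a protein phosphatase methylesterase (r = 0.983), Cdk2ap1 (r = 0.974) and Vopp1 (r = 0.972). Their differences were smaller than those of the markers, from 0.45 for Btbd17 to 1.93 for Cux2 on the log2 scale.

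Over the whole array the cortex was compared with the unweighted mean of the other 5 regions in 1 limma fit with region and genotype as terms. A gene or transcript was called at a Benjamini-Hochberg adjusted p under 0.05 with a difference of at least 2-fold. Of 25118 tested, 758 were called higher (3.02%) and 731 lower (2.91%), and these included 469 and 369 named genes. Before adjustment, 11532 of the 25118 had a limma p under 0.05 in this contrast. That share is the background for the unadjusted counts of gene lists below. The median difference of all genes tested was 0.02. The lower count moved with single arrays, to 1154 without the WT cortex array and 1169 without KO amygdala. The residual of this fit is how far the WT-to-KO step of one region departed from that of the others, with 4 degrees of freedom, and it holds no spread among regions. When region was instead a random block, with a consensus correlation of 0.909, 1 transcript was called higher and 0 lower, with 452 at an unadjusted p under 0.05. When region was left out of the model, 16 were called higher and 2 lower. A call therefore says that the difference exceeded the disagreement between genotypes, and not that the cortex stood outside the variation among regions. As a further background, both cortex arrays lay above all 9 others for 6.56% of the genes tested and below all 9 for 3.41%.

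The cortex resembled some regions more than others. Its 2 arrays correlated with each other at r = 0.986 over 25118 genes. The nearest other array was WT hippocampus for the WT cortex array (r = 0.972) and KO amygdala for the KO cortex array (r = 0.977), and the farthest was WT striatum for both (r = 0.932 and 0.905). Single comparisons called 6378 genes against striatum (25.4%), 4582 against olfactory bulb (18.2%), 1903 against hypothalamus (7.58%), 1740 against hippocampus (6.93%) and 1600 against KO amygdala (6.37%). Olfactory bulb gave 2047 higher (8.15%) and 2535 lower (10.1%), striatum 2803 (11.2%) and 3575 (14.2%), and hypothalamus 1009 (4.02%) and 894 (3.56%). Against amygdala the higher calls prevailed, 1095 (4.36%) to 505 (2.01%), and the median gene also stood 0.18 higher in cortex. Each region lay on a slide of its own, so that slide and region cannot be told apart. Cortex and hippocampus were scanned on one day and the other regions on a second day, so hippocampus is the comparison within a scan day, with 722 genes higher (2.87%) and 1018 lower (4.05%). Of the 758 genes called higher against the mean, 370 (48.8%) were also called higher against hippocampus, and of the 731 called lower, 347 (47.5%) were called lower against it.

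**Figure D2:**
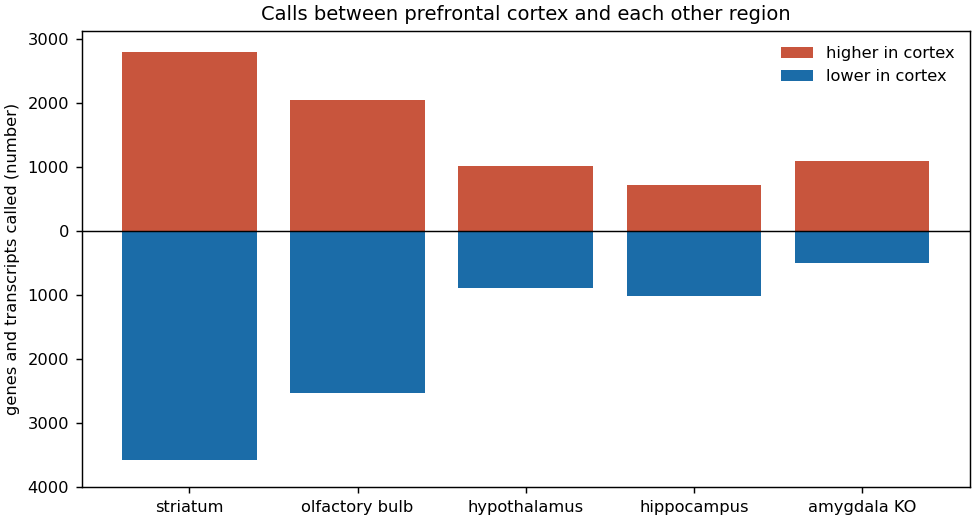
Number of genes and transcripts called between prefrontal cortex and each other region (adjusted p under 0.05 and at least 2-fold), with those higher in cortex above the zero line and those lower in cortex below it. The bars for striatum (2803 higher, 3575 lower) and olfactory bulb (2047 higher, 2535 lower) are longer than those for hypothalamus, hippocampus and KO amygdala.

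A stricter count asked for a call against each of the 5 regions separately. It left 100 genes and transcripts higher in cortex (0.398%), 66 of them named, and 46 lower (0.183%), 29 of them named. These numbers moved with the arrays used and with the number of regions asked for. Without hippocampus 155 were higher than in each remaining region, and without KO amygdala 87 were lower than in each remaining region. Both settings ask for calls against fewer regions, so the rule is looser by construction.

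Transcription factors of the pallium, the part of the forebrain that forms cortex and hippocampus, lay above 0 in 17 of 19 members tested. Of the 19, 9 were called higher and 1 lower, with a median difference of 0.89 against 0.02 for all genes tested. The shares of all genes tested, 3.02% called higher and 2.91% lower, are the background for this and every later list. Tbr1, a T-box factor of early-born and layer 6 neurons, stood at 0.15 and 0.44 in cortex, -3.55 and -3.19 in olfactory bulb, -4.91 and -3.31 in striatum, -0.43 in KO amygdala, -1.29 and -1.33 in hippocampus, and -1.61 and -1.32 in hypothalamus. Both cortex arrays exceeded all others, and amygdala came nearest. The difference was 2.48 (SE 0.30, limma adjusted p = 0.00232).

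Tshz3 and Mef2c were called against each of the 5 regions. Tshz3, a zinc finger factor linked to corticostriatal neurons, stood at 1.51 and 1.19 in cortex and between -1.47 and just under 0 on the other arrays (difference 2.06, SE 0.08, limma adjusted p = 0.000164). Mef2c, an activity-regulated factor that shapes synapse number, stood at 5.52 and 4.78 in cortex and between 2.07 and 4.04 elsewhere (difference 1.70, SE 0.13, limma adjusted p = 0.000668). The cortex arrays did not overlap the others for either gene. Fezf2, which directs layer 5 neurons that project below the cortex, stood at 0.98 and 0.76 in cortex and at most at -0.05 elsewhere, with a difference of 2.28.

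The basic helix-loop-helix genes of pyramidal neurons had hippocampus above cortex. Neurod6 stood at 1.15 and 1.26 in cortex and 2.53 and 2.60 in hippocampus, against -4.60 to -0.25 on the other 7 arrays. Neurod2 stood at 4.02 and 3.83 in cortex, 4.98 and 4.82 in hippocampus, and -0.80 to 2.96 elsewhere. Bhlhe22 stood at 0.62 and 0.91 in cortex, 1.95 and 2.10 in hippocampus, 1.68 in KO amygdala, and from -5.66 to -3.10 in olfactory bulb and striatum, and its cortex values were the lower ones against hippocampus, at a difference of -1.26. Against hippocampus alone the list had 3 members called higher and 4 lower with a median of -0.24. All genes had a median of -0.09 there, with 2.87% called higher and 4.05% lower.

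Nr4a2, an orphan nuclear receptor of claustrum and deep layers, was the 1 member called lower, at -0.27 and -0.89 in cortex and -0.67 to 1.70 elsewhere. Its arrays overlapped, and its call ended on leaving out any of 8 single arrays, the KO cortex array giving a difference of -1.10. Leaving out the KO cortex array also ended the calls of Neurod6 (2.32) and of the POU factor gene Pou3f1 (0.97), for which striatum (6.46 and 6.33) and hippocampus (5.85 and 6.05) exceeded cortex (5.05 and 5.25). Without striatum and olfactory bulb, a setting chosen after seeing the data, 5 of the 19 were called higher and the median was 0.57. Neurod2 was then at 0.54 and not called, and Bhlhe22 at -0.76. Of all 24037 genes tested in that setting, 574 were called higher and 492 lower, with a median of 0.07.

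Layer markers were counted by layer. Of 20 upper-layer markers tested, 6 were called higher and 0 lower, with a median of 0.75. Lamp5, a membrane protein of layer 2 and 3 neurons and some interneurons, stood at 4.20 and 4.41 in cortex, 2.05 and 2.36 in olfactory bulb, 2.80 and 2.92 in striatum, 2.44 in KO amygdala, 1.60 and 1.52 in hippocampus, and 1.71 and 1.75 in hypothalamus. Striatum was second and no array reached cortex (difference 2.16, SE 0.09, limma adjusted p = 0.000168).

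Cux2 stood at 1.24 and 0.84 in cortex, -0.26 and -0.46 in olfactory bulb, -1.28 and -1.53 in striatum, -0.36 in KO amygdala, -1.52 and -1.80 in hippocampus, and -0.78 and -0.78 in hypothalamus. All 9 other values were below 0 and both cortex values above it (difference 1.93, SE 0.09, limma adjusted p = 0.000193). Lmo4, a LIM-only cofactor of corticocortical neurons, stood at 6.59 and 6.54 in cortex and between 3.11 and 5.49 elsewhere, a difference of 1.91. Lamp5, Cux2 and Lmo4 were the members called against all 5 regions. Against hippocampus alone 9 of the 20 were called higher and 1 lower, where 2.87% of all genes were higher and 4.05% lower. Stard8, the nuclear receptor gene Rorb of layer 4 and the adhesion gene Nectin3 were also called higher, at 1.39, 1.26 and 1.20, but Nectin3 lost its call without striatum (0.66), Rorb without striatum and olfactory bulb (0.82), and olfactory bulb (1.54 and 1.48) exceeded cortex (1.01 and 0.97) for Stard8.

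Layer 5 markers gave 5 of 21 called higher and 0 lower, with a median of 0.26. Besides Fezf2 these were Dkk3, Rbp4, Ldb2 and Deptor. Rbp4, the retinol-binding protein gene whose Cre line marks layer 5, stood at 2.96 and 2.96 in cortex and at 2.90 and 3.01 in striatum, against -1.36 to 1.16 on the other 7 arrays. Cortex and striatum overlapped for Rbp4, so the difference of 1.98 came from the other 4 regions. Ldb2, a LIM-domain-binding cofactor, stood at 1.14 and 0.69 in cortex, with KO amygdala at 0.65 and hypothalamus at 0.79 and 0.53 close behind, and lost its call without striatum and olfactory bulb (0.77). Deptor, an inhibitor of mTOR, was higher in olfactory bulb (1.10 and 1.23) than in cortex (0.60 and 1.09), and its call ended without the KO cortex array (0.93), without hippocampus (0.86) and without striatum (0.96).

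Layer 6 and subplate markers had 1 of 21 called higher, 2 lower and a median of -0.20, where 3.02% of all genes were called higher and 2.91% lower. Tmem178 stood at 3.91 and 3.87 in cortex, with hippocampus close at 3.74 and 3.55 and the others between 0.78 and 2.56. Car12, a carbonic anhydrase gene, stood at -1.91 and -1.93 in cortex and between -0.98 and 0.49 elsewhere, and its call ended without the KO cortex array although the difference was then -1.73, and it was -0.81 with the mean of its probes. The other call was Nr4a2. The widely used layer 6 markers Tle4, Foxp2 and Ntsr1 were not called, with differences of -0.21, -0.76 and 0.16.

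**Figure D3:**
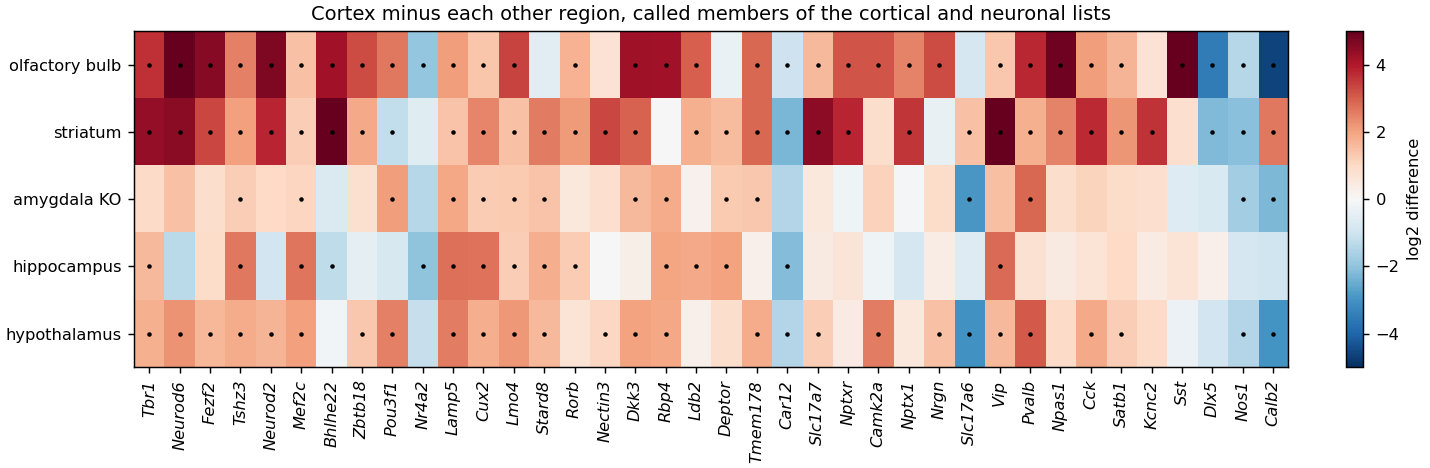
Log2 difference of prefrontal cortex from each of the 5 other regions for the 38 called members of the pallial, layer, glutamate and interneuron lists, in red where cortex was higher and blue where it was lower, with the colour scale ending at 5 in each direction. Dots mark calls (adjusted p under 0.05 and at least 2-fold). The olfactory bulb and striatum rows are the darkest, and the hippocampus row is pale or blue for Neurod6, Neurod2, Bhlhe22 and Nptx1.

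Genes of glutamatergic neurons were 5 higher and 1 lower of 18 tested, with a median of 0.49. Slc17a7, the vesicular glutamate transporter VGLUT1 of cortical neurons, stood at 1.74 and 1.80 in cortex, 0.12 and 0.18 in olfactory bulb, -3.04 and -2.37 in striatum, 1.33 in KO amygdala, 1.32 and 1.34 in hippocampus, and 0.53 and 0.52 in hypothalamus. Cortex was highest on both arrays, but amygdala and hippocampus came next (1.32 to 1.34), and the difference of 1.66 (SE 0.14, limma adjusted p = 0.000849) fell to 0.94 without striatum. Slc17a6, the transporter VGLUT2 of subcortical neurons, ran the other way, at -1.10 on both cortex arrays against 1.86 and 1.98 in hypothalamus and 1.79 in KO amygdala. Its difference of -1.18 missed the 2-fold threshold without KO amygdala (-0.75) and without hypothalamus (-0.72).

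The pentraxin receptor gene Nptxr and the pentraxin gene Nptx1, which cluster AMPA receptors, were called at 1.56 and 1.14, while the neurogranin gene Nrgn and the kinase gene Camk2a were called at 1.13 and 1.51. For Nrgn both striatum arrays (8.70 and 8.66) exceeded cortex (8.39 and 8.24). Camk2a differed between the striatum arrays themselves, at 6.79 in WT and 4.71 in KO, and lost its call on leaving out any of 7 single arrays, with 1.29 (adjusted p = 0.232, limma) without the KO cortex array. Without striatum and olfactory bulb, a setting chosen after seeing the data, 1 of the 18 was called higher, against 574 of all 24037 genes tested. Nptxr then stood at 0.27 and Nptx1 at -0.12, while Nrgn was 0.59 without olfactory bulb alone.

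Interneuron markers had 7 called higher and 3 lower of 27 tested and a median of -0.18. Vip, the peptide of a class of interneurons that inhibit other interneurons, stood at 1.97 and 2.10 in cortex, 0.54 and 0.80 in olfactory bulb, -4.60 and -3.20 in striatum, 0.71 in KO amygdala, -0.64 and -0.95 in hippocampus, and 0.31 and 0.49 in hypothalamus. Cortex exceeded every other array (difference 2.65, SE 0.30, limma adjusted p = 0.00192). Pvalb, the calcium buffer of fast-spiking cells, stood at 0.60 and 1.08 in cortex, 0.16 and 0.01 in hippocampus, -1.19 and -0.65 in striatum, and -3.01 to -1.87 elsewhere, again with no overlap (difference 2.44, SE 0.15, limma adjusted p = 0.000317).

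The cholecystokinin gene Cck stood at 7.30 and 7.02 in cortex and from 3.09 to 6.59 elsewhere, a difference of 1.90. Npas1, a transcription factor of some interneurons, the chromatin organiser gene Satb1 and the fast-spiking potassium channel gene Kcnc2 were called at 1.93, 1.41 and 1.31. Kcnc2 lost its call without striatum (0.73) and Npas1 without striatum and olfactory bulb (0.74). Sst, the somatostatin gene, was called at 1.12, but KO amygdala (5.77) and hypothalamus (5.42 and 5.34) exceeded cortex (5.06 and 5.15). The olfactory bulb, at 0.05 and 0.10, was far below, and the difference was 0.15 without that region and -0.08 without striatum as well.

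The members called lower were Dlx5, a homeobox gene of subpallial precursors, Nos1, the neuronal nitric oxide synthase gene, and Calb2, the calretinin gene. Dlx5 stood at -2.31 and -2.30 in cortex, 1.19 on both olfactory bulb arrays and -0.09 and -0.07 in striatum, with hippocampus slightly lower than cortex, and its difference was -0.48 without striatum and olfactory bulb. Calb2 stood at -2.50 and -2.01 in cortex, 2.25 and 2.51 in olfactory bulb, and -5.63 and -4.12 in striatum. Cortex thus lay between bulb and striatum for Calb2, whose call ended without the KO cortex array (-1.51).

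Receptors for the ascending amines were taken by family. Among the adrenergic receptors described here, Adra1b was the 1 that met the threshold for a call. It had been picked as a marker with results known, so this is no test. The alpha-1 relatives Adra1a and Adra1d differed by 0.18 and 0.31, the alpha-2 genes Adra2a, Adra2b and Adra2c by -0.34, -0.20 and -0.27, and the beta gene Adrb1 by 0.07. Adra2a, the autoreceptor and postsynaptic receptor studied in prefrontal working memory, stood at 1.22 and 0.78 in cortex, below hypothalamus (2.65 and 2.57) and KO amygdala (2.41) and above striatum (-0.24 and -0.06).

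Of 5 dopamine receptors 0 were called higher and Drd2 was called lower. Drd2 stood at -3.85 on both cortex arrays, 2.31 and 2.26 in striatum, and -3.58 to -1.40 elsewhere, so that cortex was lowest and striatum far above the rest. Its difference of -2.52 was -0.77 without striatum. Drd1 lay at -1.08 and -1.26 in cortex, 2.86 and 3.02 in striatum and -3.08 and -3.48 in olfactory bulb. Drd4, a receptor often studied in frontal cortex, differed by 0.98 (SE 0.08, limma adjusted p = 0.000836) and missed the 2-fold threshold. It stood at -2.04 and -2.06 in cortex with striatum level at -2.04 and -2.24 and all others between -3.56 and -2.77. Drd3 and Drd5 differed by -0.06 and 0.64.

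Of 11 serotonin receptors tested 1 was called higher and 1 lower, against 3.02% and 2.91% of all genes tested. Htr1a, an inhibitory receptor, was called at 1.00 on the threshold, with KO amygdala (-2.06) and hippocampus (-1.81 and -1.69) at or above cortex (-2.60 and -1.96). It lost that call on leaving out any of 5 single arrays, with 0.69 without the KO cortex array, and was -0.13 without striatum and olfactory bulb. Htr5b was called lower at -1.72, with hippocampus highest (-0.80 and -1.06) and cortex at -3.95 and -4.39. Htr2a, the excitatory receptor of pyramidal neurons, stood at -3.46 and -2.97 in cortex and -4.33 to -3.24 elsewhere, a difference of 0.44 that was not called. Of 5 muscarinic acetylcholine receptors limma called 0 in either direction, with 1 at an unadjusted p under 0.05.

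The families of the markers were then examined. Among the hexokinases, Hkdc1 met the threshold for a higher call, which is no test because it had been picked as a marker. Hk1, the main brain hexokinase, stood at 0.40 and 1.01 in cortex with a difference of 0.66, while Hk2 and Hk3 differed by 0.15 and -0.13. Of 17 other glycolysis enzymes limma called 0, with 13 at an unadjusted p under 0.05, against 11532 of all 25118 genes tested. Their differences ran from -0.30 for Eno3 to 0.72 for Ldha with a median of 0.26, and 16 of 17 lay above 0.

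Of the Dickkopf family, inhibitors or relatives of inhibitors of Wnt signalling, 3 of 5 members passed the filter, namely the marker Dkkl1, Dkk3, and Dkk2, which passed through the cortex arrays with 3 of 9 others above background. Dkk3 was called higher. Dkk2 also met the threshold for a call, but it was tested only because both cortex arrays were bright, so no p is given. The others, Dkk1 and Dkk4, were not above background often enough to be tested. Dkk3 stood at 3.15 and 3.07 in cortex and 2.92 and 2.67 in hippocampus, against -1.16 to 1.47 on the other 7 arrays, so hippocampus lay just below cortex (difference 2.23, SE 0.09, limma adjusted p = 0.000176). Dkk2 was dim and uneven, at -2.24 in WT and -4.11 in KO cortex and between -6.82 and -3.97 elsewhere. The KO cortex value of Dkk2 overlapped the others, and its call ended without the WT cortex array (1.38) and without either hypothalamus array.

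Of 26 sarcomere genes tested, 4 were called higher and 0 lower, with a median of 0.20. Tcap was 1 of the 4, but it had been picked as a marker with results known, so its call is no test. Tnnc1, the slow and cardiac troponin C gene, stood at 0.55 and 0.23 in cortex, -3.94 and -3.74 in olfactory bulb, -2.63 and -2.88 in striatum, -2.37 in KO amygdala, -2.69 and -2.85 in hippocampus, and -1.08 and -1.79 in hypothalamus. Myh2, a fast myosin heavy chain gene, stood at -0.39 and -0.63 in cortex and between -3.31 and -1.96 elsewhere. Tcap, Tnnc1 and Myh2 were higher than in all 5 regions, and none of their arrays overlapped. Tnnt2, the cardiac troponin T gene, was called at 1.01 with KO amygdala level with cortex, and its call ended without any of 4 single arrays. Myl4, an atrial and embryonic myosin light chain gene outside that list, stood at 2.43 on both cortex arrays and from -1.81 to 0.79 elsewhere (difference 3.03, SE 0.09, limma adjusted p = 0.000132). Of the genes of bulk muscle, Ckm, the muscle creatine kinase, differed by 0.40, Ttn, titin, by 0.29, Mb, myoglobin, by -0.02 and Acta1, skeletal actin, by 1.00, and none of them was called.

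The 15 highest named genes among those with no overlap between cortex and the 9 other arrays included, besides the markers, Tnnc1 and Myl4, the genes Pmaip1, Ovol2, Wnt10a, Sowahb, Chrnb4 and Rhag, and 3 genes well above background on the cortex arrays alone. Pmaip1, the proapoptotic protein Noxa, stood at 0.11 and 0.27 in cortex, -4.48 and -4.37 in olfactory bulb, -3.31 and -3.41 in striatum, -2.66 in KO amygdala, -1.70 and -1.68 in hippocampus, and -2.58 and -2.39 in hypothalamus. It was 8.69-fold higher (SE 0.08 on the log2 scale, limma adjusted p = 0.000107). Wnt10a, a secreted Wnt ligand, stood at 2.63 and 2.64 in cortex and from -0.98 to 0.46 elsewhere, a 6.51-fold difference. Ovol2, a zinc finger repressor known from epithelia, stood at 1.12 and 1.02 in cortex and from -2.14 to -0.91 elsewhere, 7.20-fold. Cortex and the other arrays were far apart for all 3 genes. Sowahb stood at 0.41 and 0.77 in cortex and from -4.06 to -1.35 elsewhere.

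Several of the highest genes were dim outside the cortex. Where all arrays of the dim side were below background, the fold is a lower bound under the main scaling only. It is taken against the lowest signal well above background on each array, or the dim signal itself where that was higher. Chrnb4, a nicotinic acetylcholine receptor subunit gene, stood at -3.21 and -2.16 in cortex and -7.72 to -4.76 elsewhere, with 1 of 9 other arrays well above background, and lost its call without the KO cortex array (2.95). Ocm, the parvalbumin relative oncomodulin, was not well above background on any of the 9 and was at least 3.82-fold higher in cortex. It was tested only because both cortex arrays were bright, so no p is given. The olfactory receptor genes Olfr1261 and Olfr78 were likewise at least 2.90-fold and 2.82-fold higher, and Olfr1261 lost its call without the KO cortex array. With normexp background correction and quantile normalization, the differences of Ocm, Olfr1261 and Olfr78 were only 0.85, 0.92 and 0.73 on the log2 scale. All of these lie below the bounds, and the calls were lost. Rhag, an ammonia channel gene of red cells, stood at -2.27 and -2.54 in cortex and also at -2.81 in WT hippocampus. The other 8 arrays stood at -7.76 to -4.51 for Rhag. Chrnb4 and Rhag, like Ocm, were tested only because both cortex arrays were bright. In all, 99 of the 758 higher calls (13.1%) were well above background on fewer than 5 of the other arrays and were tested only because both cortex arrays were bright, and 22 had no other array above background.

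Of the 18 calls kept with region left out of the model, 8 of the 16 higher ones carried a symbol. They were Hkdc1, Olfr78, Ocm, Ovol2, Pamr1, Rassf3, Sytl2 and Afap1l1. Hkdc1 is a marker picked with results of these arrays known, and Olfr78 and Ocm were tested only through the cortex arrays. The calls of Hkdc1, Olfr78 and Ocm are therefore description and no test. Rerg, a Ras-like growth inhibitor, was the named gene kept among the lower ones. These were singled out after their values were seen. Rerg stood at -1.76 and -1.15 in cortex, 1.51 and 1.81 in olfactory bulb, 0.64 and 0.93 in striatum, 0.92 in KO amygdala, 0.95 and 1.14 in hippocampus, and 0.73 and 0.74 in hypothalamus. The 9 other arrays were close together and cortex alone was low, by 5.47-fold.

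The 15 lowest named genes among those with no overlap between cortex and the 9 other arrays included regulators, peptides and enzymes. Meis1, a homeobox factor of striatal, bulb and amygdala neurons, was not well above background on either cortex array (-6.59 and -6.37) and stood at -0.18 and -0.28 in olfactory bulb, -2.35 and -1.85 in striatum, -2.13 in KO amygdala, -4.28 and -5.46 in hippocampus, and -2.55 and -2.53 in hypothalamus. It was at least 6.63-fold lower in cortex, and no p is given because it was tested only through the other arrays. Over all settings its smallest difference was -1.40 on the log2 scale. Isl1, a LIM-homeobox gene of striatal and hypothalamic neurons, stood at -4.84 and -4.91 in cortex, about as low in olfactory bulb (-4.39 and -4.52), 0.92 and 0.82 in striatum, and 0.32 and 0.61 in hypothalamus. Slc10a4, a vesicular transporter of cholinergic and aminergic neurons, stood at -4.71 and -4.70 in cortex, 2.13 and 2.17 in striatum, and -3.01 to -0.52 elsewhere.

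Among peptides and enzymes, Nts, the neurotensin gene, stood at -3.60 and -4.10 in cortex, -1.72 and -1.83 in olfactory bulb, 0.04 and -0.04 in striatum, 2.09 in KO amygdala, -1.47 and -0.51 in hippocampus, and 1.82 and 1.95 in hypothalamus. Cortex was lowest and amygdala and hypothalamus highest, and the mean difference was 16.9-fold. Hdc, the histidine decarboxylase of histamine neurons, stood at -4.52 and -4.08 in cortex, 1.29 and 1.17 in hypothalamus, and -2.47 to -0.55 elsewhere. Agt, the angiotensinogen gene of astrocytes, stood at -0.36 and -0.53 in cortex, 2.07 and 1.72 in olfactory bulb, 0.81 and 1.35 in striatum, 3.27 in KO amygdala, 2.04 and 1.80 in hippocampus, and 4.60 and 4.81 in hypothalamus. All 3 genes were called lower than in each of the 5 regions.

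Clic6, a chloride channel gene of choroid plexus that is also found in neurons, stood at -4.36 and -4.30 in cortex, -1.0 and -1.60 in olfactory bulb, 1.15 and 1.31 in striatum, 1.20 in KO amygdala, 1.71 and 2.46 in hippocampus, and 2.72 and 2.14 in hypothalamus, a 44.2-fold difference. The transcript 1700012B09Rik was not above background in cortex and at least 14.3-fold lower there. The prokineticin receptor gene Prokr2, the protease gene Pappa, Capsl and the axonemal dynein gene Dnah11 were also not above background on either cortex array. Under the main scaling they were at least 3.71-fold, 2.67-fold, 8.66-fold and 4.91-fold lower. Over all settings their smallest differences were -0.84, -0.79, -1.47 and -1.21 on the log2 scale. Prokr2 and Pappa lost their calls with normexp background correction and quantile normalization. Krt18, Slc35d3 and Kcne2 complete the 15 lowest, at -3.58, -3.04 and -2.80, and Kcne2 lost its call without the KO cortex array (-2.64). Of the 731 lower calls 276 (37.8%) were not well above background on both cortex arrays, and 170 of them were above it on neither array.

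**Figure D4:**
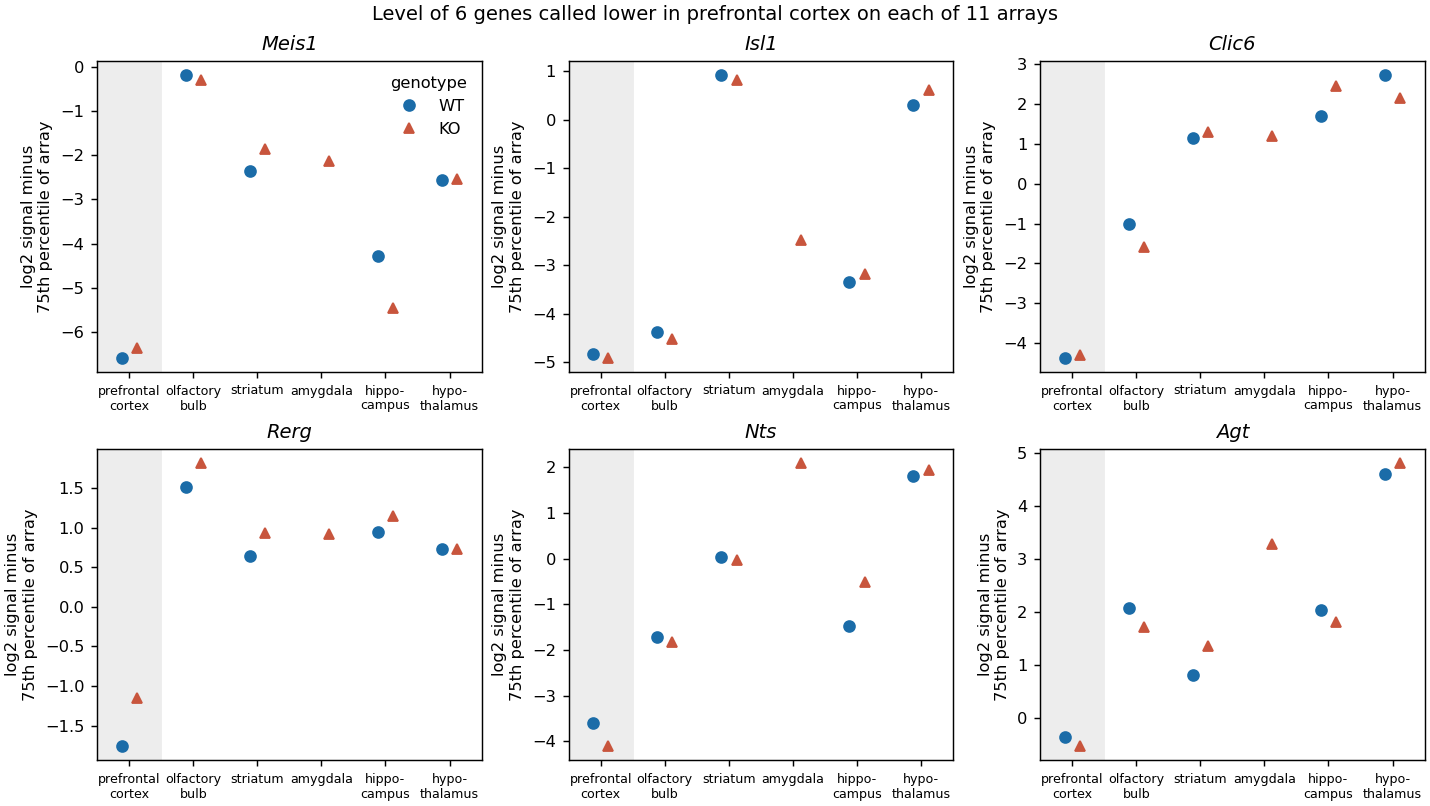
Level (log2 signal minus the 75th percentile of the array) of Meis1, Isl1, Clic6, Rerg, Nts and Agt on each of 11 arrays, by region, with circles for WT and triangles for KO. The shaded prefrontal cortex points are the lowest in all 6 panels, with olfactory bulb close to them for Isl1.

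Marker lists of the other dissected regions had more members called lower than higher in cortex, and each had its lowest median against its own region. Of 19 hypothalamus markers tested 12 were called lower and 0 higher (median -1.47, and -4.13 against hypothalamus alone). Of 17 striatum markers 7 were lower and 0 higher (median -0.85, and -4.01 against striatum). Of 15 olfactory bulb markers 8 were lower and 0 higher (median -1.05, and -4.65 against olfactory bulb). Of 15 hippocampus markers 5 were lower and 1 higher (median -0.45, and -1.60 against hippocampus), and of 11 amygdala markers 3 were lower and 2 higher (median -0.41, -0.99 against KO amygdala and -0.86 against hypothalamus, but 0.96 against olfactory bulb and 0.73 against striatum). Over all single arrays and regions left out, the number called lower ranged from 6 to 14 for hypothalamus markers and from 2 to 10 for striatum markers.

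Within these lists Penk, the proenkephalin gene of striatal neurons, stood at 4.33 and 4.35 in cortex, 9.03 and 8.93 in striatum, 4.36 and 4.23 in hippocampus, and from 6.00 to 6.26 elsewhere. Cortex and hippocampus were the lowest and overlapped. Grp, the gastrin-releasing peptide gene, was the hippocampus-list member called higher, at 0.94 and 0.89 in cortex, but KO amygdala (1.47) and hypothalamus (1.51 and 1.10) exceeded it, and its difference was 0.15 without striatum and olfactory bulb. Rspo2 and Dkk3 were the members of the amygdala list called higher. Rspo2, a Wnt agonist of the R-spondin family, stood at 1.06 and 1.26 in cortex, 0.70 in KO amygdala, -0.03 and 0.10 in hypothalamus, -0.56 and -0.58 in hippocampus, and -3.93 to -2.95 in olfactory bulb and striatum. Of 9 thalamus markers 3 were lower and 0 higher (median -0.96).

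Markers of cells along the ventricles moved with the region as well. Of 11 choroid plexus markers tested 9 were called lower, with a median of -2.66, but 3 without the KO cortex array and 6 without the WT cortex array. With both cortex arrays and 5 of 9 others above background, a filter added after seeing the data, 7 were tested and 5 were lower. Of all 23272 genes tested with that filter, 458 were lower. Ttr, the transthyretin gene that defines choroid plexus, stood at -6.81 and -6.12 in cortex and -6.91 and -6.10 in olfactory bulb, not above background on either cortex array, and at 2.02 and 3.07 in hippocampus and 2.71 and 1.55 in hypothalamus. It was at least 20.0-fold lower in cortex, and its call ended without the KO cortex array (-5.29). The striatum arrays differed from each other for Ttr, at -4.20 in WT and 0.05 in KO. The summed level of the list spanned 4.0 to 4.14 in cortex and 3.45 to 6.17 elsewhere. Of 7 ependyma markers 6 were lower, with a median of -1.39 and a summed level of 1.22 to 1.23 against 1.61 to 3.48. Foxj1, the master regulator of motile cilia, stood at -1.67 and -1.78 in cortex, -1.14 in KO amygdala and from -0.02 to 1.00 elsewhere. The part of these cells in the other lower calls was not tested.

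Other non-neuronal lists showed smaller shifts. Of 15 oligodendrocyte markers 3 were called lower and 0 higher, all 15 lay below 0 and the median was -0.55. Mobp, a myelin-associated gene, stood at -0.44 and -0.40 in cortex and from -0.21 to 2.84 elsewhere. The myelin basic protein gene Mbp stood at 5.67 and 5.66 in cortex, level with olfactory bulb and KO amygdala, and 8.88 and 8.33 in striatum, and its call ended without the WT striatum array (-0.97) and without the WT cortex array (-0.98), and under median scaling (-0.96). The difference of Mbp was -0.54 without striatum, and Mobp also lost its call there (-0.87). Agt was the 1 astrocyte marker called of 14, with a median of -0.09 for the list. Limma called 0 of 15 microglia markers (7 at an unadjusted p under 0.05), 0 of 17 endothelial and pericyte markers (8), 0 of 8 oligodendrocyte precursor markers (3) and 0 of 4 red blood cell markers (0). Among all 25118 genes tested, 11532 had an unadjusted limma p under 0.05. Of 14 meningeal fibroblast markers limma called 0 (7 at an unadjusted p under 0.05), 13 lay above 0 with a median of 0.56, and their summed level was 6.95 to 6.99 in cortex against 4.91 to 7.42 elsewhere, highest in olfactory bulb and lowest in striatum. The part of meningeal RNA in the cortical calls was not tested.

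Of 18 immediate early genes, which follow neuronal activity, Egr3 was called higher and Nr4a2 lower, with a median of 0.21. Among all genes tested 3.02% were called higher and 2.91% lower. Without striatum and olfactory bulb, a setting chosen after seeing the data, 6 of the 18 were called higher and 1 lower, with a median of 0.69. Of all 24037 genes tested in that setting, 574 were called higher and 492 lower, with a median of 0.07. Egr3 stood at -3.80 in WT and -2.96 in KO cortex, with hippocampus at -3.79 and -3.24, and lost its call on leaving out any of 5 single arrays, at 0.61 without the KO cortex array. Of 7 perineuronal and matrix genes Hapln4, a link protein of the nets around Pvalb cells, was called at 1.01 and lost the call without any of 5 single arrays.

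**Figure D5:**
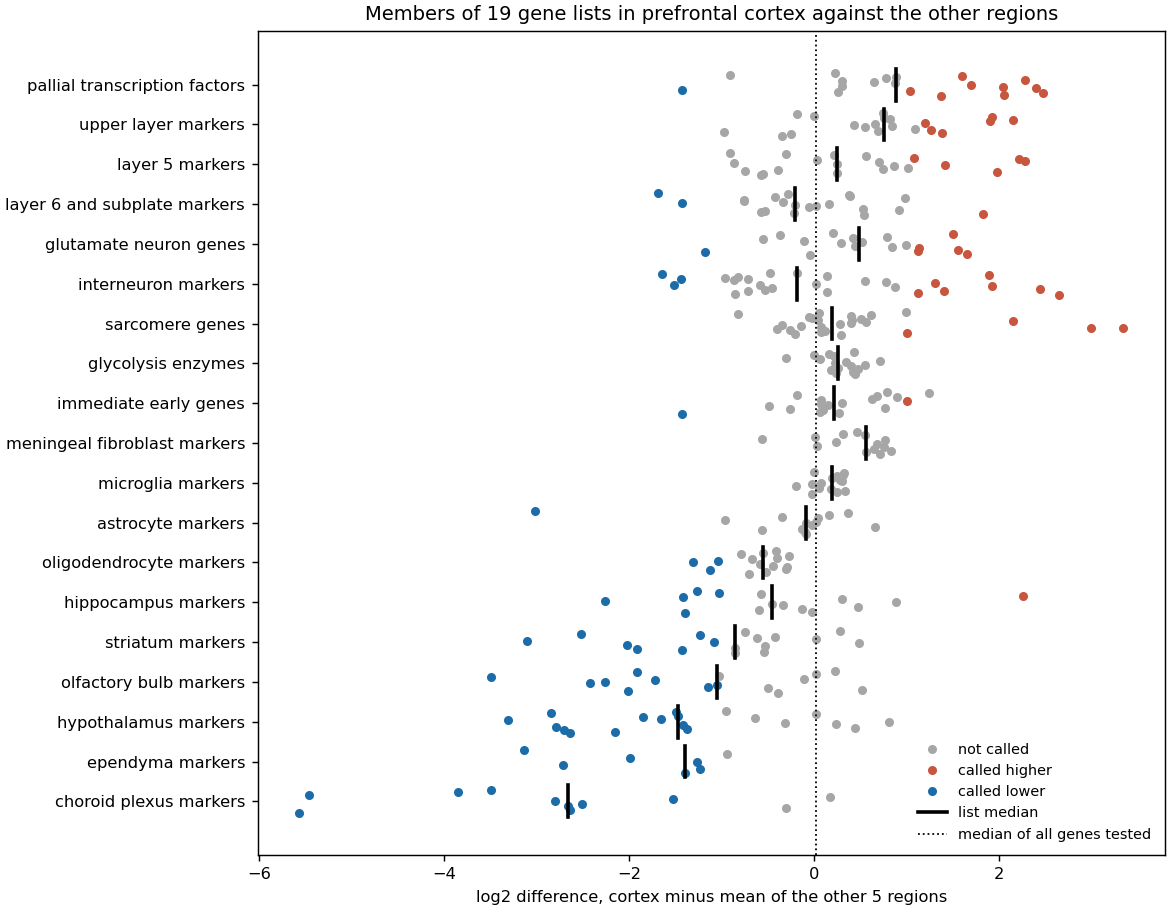
Log2 difference of prefrontal cortex from the mean of the other 5 regions for each tested member of 19 gene lists, with red points called higher, blue points called lower and grey points not called. Black bars are list medians and the dotted line is the median of all genes tested (0.02). Pallial and upper-layer lists lie to the right of the line, and hypothalamus, ependyma and choroid plexus lists to the left.

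The pattern was next compared between genotypes in the 5 regions with both arrays, using the KO minus WT step of cortex against the steps of olfactory bulb, striatum, hippocampus and hypothalamus. In limma 0 of 25118 genes were called after adjustment, with 2326 (9.26%) at an unadjusted p under 0.05, and the smallest adjusted p was 0.246. The single cortical step is assumed to vary like the others in this test. The median absolute KO-to-WT step in cortex, 1 array minus 1 array, was 0.20. The median absolute difference of cortex was 0.26 from the mean of the other regions, and from 0.29 (hippocampus) to 0.57 (striatum) from single regions. These differences average over more arrays than the step, so the sizes cannot be compared directly. For the markers, the step in cortex was -0.36 for Hkdc1, -0.82 for Tcap, 0.01 for Dkkl1 and 0.44 for Adra1b.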

How the data were processed

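The authors deposited 1 Agilent Feature Extraction file (version 9.5.3.1, per the file headers) for each array, with the processed intensity of every spot after background subtraction by that software. Outlier spots were dropped, repeat spots averaged, and log2 intensity was scaled to the 75th percentile of each array. A probe was kept when well above background on both cortex arrays or at least 5 of the 9 others, and each gene took its brightest kept probe. limma 3.58.1 (R 4.3.3) fitted region and genotype on 11 arrays, with 4 residual degrees of freedom. The cortex contrasts used Benjamini-Hochberg adjustment over all 25118 genes. Tested on simulated data with independent normal noise, the genotype test recovered 98 of 200 genes shifted by 1.5 or 3 on the log2 scale. Smaller shifts were not simulated. The members and lists were chosen with earlier results of these data known. Named genes were the 15 highest and 15 lowest called differences among genes whose cortex arrays both lay beyond all 9 others, up to 8 genes in each direction by their smallest difference over the 5 regions, the 3 most like each marker, receptor and enzyme families, and up to 6 called members of each list. Further list members were named after their values were seen. Array number limits the precision. Of 41174 gene probes, 55.7% carried a gene symbol, and the others keep the accession of the array design. The alternatives were other scalings, background correction, filters, probe rules, region terms and omitted arrays or regions. Some genes that this rule selects are not reported here.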

Additional observations from a re-analysis of the deposited data

How the results depend on the processing

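Of 1489 calls, 1302 were shared after quantile normalization and 1375 after median scaling. With normexp background correction on median signals and quantile normalization, 334 genes were higher and 242 lower in cortex, with 59 higher and 12 lower than in each region, and 535 called against KO amygdala, 855 against hippocampus, 878 against hypothalamus, 2318 against olfactory bulb and 3317 against striatum. In that normexp setting, 37 of 138 genes followed by name lost their call. Quantile normalization alone gave 1017 against KO amygdala. With no filter on dim probes, 10157 differed from striatum. With probes above background on all 11 arrays, 487 were higher, 423 lower, 27 lower than each region and 1238 called against hypothalamus. With region not in the model 16 were higher and 2 lower, and with region as a random block 1 and 0. At a difference of at least 2 on the log2 scale, 118 were higher, 126 lower, 22 and 5 so against each region, with 302 called against KO amygdala, 363 against hippocampus, 440 against hypothalamus, 1062 against olfactory bulb and 1500 against striatum. A filter added after seeing the data, both cortex arrays and 5 of 9 others above background, gave 458 lower and 26 lower than each region.

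Leaving out striatum gave 78 lower than each region, leaving out amygdala 1169 lower and 87 lower than each, leaving out hippocampus 155 and 86 higher and lower than each, and leaving out striatum and olfactory bulb 189 and 126. In that last setting, added after seeing the data, Nptx1 (-0.115), Sst (-0.0793), Bhlhe22 (-0.762) and Htr1a (-0.128) changed sign. Over single arrays left out, higher calls ranged from 709 to 893, lower from 503 to 1169, those higher than each region from 80 to 153 and lower than each from 33 to 87. Calls ranged from 1244 to 2228 against KO amygdala, 1330 to 1865 against hippocampus, 1527 to 1978 against hypothalamus, 3812 to 5209 against olfactory bulb and 5542 to 6891 against striatum. Where a comparison loses an arm's second array, the remaining one is assumed to vary like the others. Leaving out a region, or the only amygdala array, asks for calls against fewer regions and so loosens the count against each region. Any other cause of these changes was not tested. No paired analysis was possible beyond the region term, which already pairs WT with KO, because each region and genotype had 1 array. One pool per array and dim striatum arrays limit what can be resolved.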
